A study of Mus musculus with 30 samples.

Results

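The genes described here are 43 members of the collagen and extracellular matrix group, out of 46078 genes in the count table of a mouse colon RNA-seq study. They were listed by name, with earlier results of these data known, so the list is not independent of the values. All 43 were found in every library. The study sequenced total RNA from snap-frozen colon of C57BL/6J mice, 1 library per animal and 6 animals in each of 5 groups. CD females and CD males received a control diet that was low in fat, and HFD females and HFD males a high-fat diet, for 13 weeks. These 4 groups were injected with vehicle, and the fifth, HFD+E2 males, received the high-fat diet and estradiol (E2) at 0.5 mg/kg body weight, in 9 intraperitoneal injections over the last 3 weeks. All animals came from in-house breeding and were a few weeks old when the diets began. The females kept their ovaries, and no group of females given E2 was compared here.

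Collagens are built from chains wound into a triple helix. Fibrillar collagens assemble into the cables that give the submucosa of the colon its strength, type VI collagen forms a beaded network around cells, and type IV collagen, laminins and nidogens form the basement membrane under the epithelium and around muscle cells and vessels. Elastin is laid down on fibrillin microfibrils, small leucine-rich proteoglycans coat collagen fibrils, and lysyl oxidases crosslink both collagen and elastin. In the gut wall these proteins come mostly from fibroblasts and smooth muscle cells.

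The 43 members took between 0.331% and 0.637% of the counts of a library. Libraries held from 8667177 to 17243712 counts on genes (median 11530915.5), of which mitochondrial genes took 26.1% to 38.0%. The tissue label was checked against 11 genes of colon epithelium, which summed to 4490 to 6760 TPM per library. Muc2, the mucin of goblet cells, was at 1210 to 3160 TPM and the villin gene Vil1 at 110 to 181 TPM, whereas Cdx2, a transcription factor of intestinal epithelium, was at 0 to 1.09 TPM. TPM is a level of transcripts scaled to gene length and to a fixed total per library, so that it allows genes to be compared with each other. Genes of stratified squamous epithelium, which the colon lacks, summed to 240 to 1380 TPM in replicates 1, 3, 4 and 5 of the HFD females and to 506 and 108 TPM in replicates 2 and 4 of the HFD males, and to at most 13.5 TPM in every other library. For comparisons that include these 6 libraries, the number of members past a threshold is given with and without them. Values of single genes and sums by class are given with them, except where a sign changed.

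The promoters of 4 members whose level fell in CD females are shown because these genes fell together in that comparison while their promoters differ in composition. On the high-fat diet the sex difference was negative for Nid1 and Sparc and positive for Col1a2 and Col3a1, none past the adjusted threshold with edgeR. The 4 genes were chosen after the values were seen. Each run holds the 250 bases upstream of the annotated start, 5′ to 3′ on the strand of the gene, from RefSeq (GRCm38.p6). The GENCODE coordinates place the start of Col1a2 at 4504814, so that its window lies inside the gene in that annotation. Capitals mark 3 motifs searched for on both strands. The first is TATAAA, known as the box that positions transcription near the start, and it was found in Col3a1. There it lay at -117 to -112, counted from the annotated start, and whether it acts as such a box was not tested. Then comes the motif named CCAAT, bound by factor NF-Y and found in Col1a2 and, on the opposite strand, in Nid1. Last is GGGCGG, bound by Sp1 and found in Col1a2 and Nid1. The window of Sparc held none of the 3. The windows are those of Col1a2 (chr6:4505368-4505617, plus strand), Col3a1 (chr1:45311288-45311537, plus strand), Sparc (chr11:55420081-55420330, minus strand) and Nid1 (chr13:13437352-13437601, plus strand).
Col1a2: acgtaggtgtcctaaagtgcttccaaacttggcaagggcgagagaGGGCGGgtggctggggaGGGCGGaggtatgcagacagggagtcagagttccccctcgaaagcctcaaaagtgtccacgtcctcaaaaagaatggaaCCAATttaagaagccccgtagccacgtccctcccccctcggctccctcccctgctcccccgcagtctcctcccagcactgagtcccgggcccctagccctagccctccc
Col3a1: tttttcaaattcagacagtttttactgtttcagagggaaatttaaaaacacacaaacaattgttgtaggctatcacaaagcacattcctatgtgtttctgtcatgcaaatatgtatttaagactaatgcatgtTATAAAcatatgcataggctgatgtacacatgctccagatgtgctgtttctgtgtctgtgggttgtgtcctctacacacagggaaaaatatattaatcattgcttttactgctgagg
Sparc: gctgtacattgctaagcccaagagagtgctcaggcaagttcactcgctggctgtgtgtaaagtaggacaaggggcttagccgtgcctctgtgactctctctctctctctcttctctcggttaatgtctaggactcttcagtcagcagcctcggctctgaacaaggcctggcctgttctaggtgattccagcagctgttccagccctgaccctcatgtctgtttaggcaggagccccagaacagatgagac
Nid1: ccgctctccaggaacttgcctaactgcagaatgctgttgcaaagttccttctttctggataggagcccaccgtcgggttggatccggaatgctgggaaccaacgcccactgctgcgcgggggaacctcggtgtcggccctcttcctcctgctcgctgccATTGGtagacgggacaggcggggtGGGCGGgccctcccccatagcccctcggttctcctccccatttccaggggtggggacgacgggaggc

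The promoter windows of Col3a1 and Nid1 had 35.2% and 64.4% G and C, those of Col1a2 and Sparc 62.0% and 54.0%. Of the 43 members, 29 had such a window, with a median of 58.6% G and C, against 52.4% over the windows of 27025 genes. The GC box was found on either strand in 19 of 29 members (65.5%) and in 35.4% of all windows. The CCAAT box was found in 11 (37.9%, against 37.5% of all windows) and TATAAA in 4 (13.8%, against 14.3%), namely Col3a1, Ogn, Postn and Tnc. The palindromic estrogen response element was in none of the 29 and in 18 of the 27025 windows, and the single arm of it (AGGTCA, which can lie within a longer element) was in 2 members, P3h1 and Postn (6.9%, against 15.8%). The Smad box (GTCTAGAC) was in none of the 29 windows and in 0.2% of all. A match of this kind describes letters in the window and not the binding of a factor.

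Levels of the members spanned a wide range. Averaged over the 30 libraries, Dcn, which encodes the proteoglycan decorin, was highest at 321 TPM, followed by Postn (periostin) at 213 TPM, Col3a1 at 156 TPM and Fn1 (fibronectin) at 137 TPM. The lowest were P3h1, a prolyl hydroxylase of collagen chains, at 1.70 TPM and Fbln5, a fibulin of elastic fibers, at 1.68 TPM. The lowest count of any library was 27 for P3h1 and 2398 for Dcn, so counting error was larger for P3h1. Of the 43 members, 31 had their lowest group mean in CD females and 22 their highest in CD males, whereas HFD+E2 males were the highest group for 13.

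Of the fibrillar collagens, Col1a1, the α1 chain of type I collagen, had a median of 14.4 TPM (9.28 to 21.5) in CD females, 21.6 TPM (19.6 to 26.3) in CD males, 23.6 TPM (11.5 to 53.5) in HFD females, 15.2 TPM (5.98 to 29.2) in HFD males and 19.7 TPM (16.1 to 26.2) in HFD+E2 males. Its partner chain Col1a2 had medians of 38.0 TPM (28.5 to 48.2), 67.8 TPM (55.9 to 72.9), 57.7 TPM (42.6 to 119), 49.2 TPM (34.9 to 69.6) and 57.3 TPM (38.6 to 69.1) in the same order of groups. Col3a1, the chain of type III collagen, had 117 TPM (89.2 to 144), 205 TPM (150 to 216), 150 TPM (130 to 235), 147 TPM (99.6 to 213) and 159 TPM (126 to 205). In all 3 genes CD males lay above CD females with little or no overlap, while the HFD groups overlapped each other. Replicate 1 of the HFD females was the highest library of that group for all 3 chains. In HFD males replicate 1 was the lowest and replicate 6 the highest for all 3. The ratio of the TPM of Col1a1 to that of Col1a2, which share a triple helix, had group medians between 0.295 and 0.427.

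Among the network and basement membrane collagens, Col6a1 of the pericellular type VI network had medians of 32.1 TPM (23 to 35.2) in CD females, 51.7 TPM (38.7 to 56.5) in CD males, 44 TPM (29.6 to 59.7) in HFD females, 40.5 TPM (25 to 55.9) in HFD males and 44.4 TPM (32.8 to 57.4) in HFD+E2 males. Col4a1 of the basement membrane had 23.9 TPM (18.5 to 28.3), 34.7 TPM (27.5 to 44.9), 26.9 TPM (20.2 to 30.3), 27.9 TPM (15.2 to 37.0) and 29.1 TPM (20.8 to 47.7). Col4a2, the chain that joins it in type IV collagen, had 13.7 TPM (9.62 to 17), 20.6 TPM (16.2 to 26.1), 16.3 TPM (13.4 to 20.0), 16.4 TPM (9.52 to 19.7) and 19.9 TPM (11.1 to 30.9). CD males again stood highest by median, and the other 4 groups overlapped. Col4a1 and Col4a2 lie head to head on chromosome 8 (GRCm38, 11198423 to 11312826 and 11312805 to 11449287), and the TPM ratio of the pair had group medians of 1.6 to 1.84. Col3a1 and Col5a2 are neighbors on chromosome 1, 24.6 kb apart, Col4a5 and Col4a6 lie 1.31 kb apart on the X chromosome, and Lum and Dcn 47.3 kb apart on chromosome 10.

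Fn1, which links cells to collagen, had medians of 96.8 TPM (85.2 to 124) in CD females, 187 TPM (139 to 232) in CD males, 118 TPM (109 to 140) in HFD females, 129 TPM (106 to 151) in HFD males and 156 TPM (85.6 to 188) in HFD+E2 males. Sparc, a matricellular protein that binds collagen, had 56.9 TPM (40.6 to 65.5), 99.4 TPM (72.0 to 116), 71.8 TPM (56.7 to 122), 83.1 TPM (63.8 to 96.4) and 84.5 TPM (68.3 to 89.3). Both genes were lowest in CD females, without overlap with CD males on the TPM scale. Fbn1, the fibrillin of microfibrils, had 14.6 TPM (10.9 to 18.3), 25.1 TPM (12.3 to 34.5), 17.2 TPM (14.7 to 24.2), 20.4 TPM (13.8 to 31.4) and 24.8 TPM (21.2 to 26.3). Eln, which encodes elastin, had 6.39 TPM (4.72 to 9.12), 8.60 TPM (5.33 to 12.6), 6.19 TPM (5.50 to 7.75), 4.51 TPM (2.78 to 9.50) and 9.25 TPM (6.61 to 16.0), so that its lowest median was in HFD males and not in CD females. Dcn had 247 TPM (136 to 296), 361 TPM (249 to 506), 295 TPM (198 to 385), 430 TPM (270 to 454) and 327 TPM (302 to 358), and was highest by median in HFD males. Lox, the lysyl oxidase that starts crosslinking, had 1.44 TPM (0.776 to 1.64), 3.48 TPM (2.5 to 5.01), 1.55 TPM (1.23 to 3.94), 2.48 TPM (1.26 to 5.29) and 2.11 TPM (0.904 to 4.02). All 6 CD females lay below all 6 CD males, and 5 of 6 HFD females lay below the lowest CD male.

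**Figure D1:**
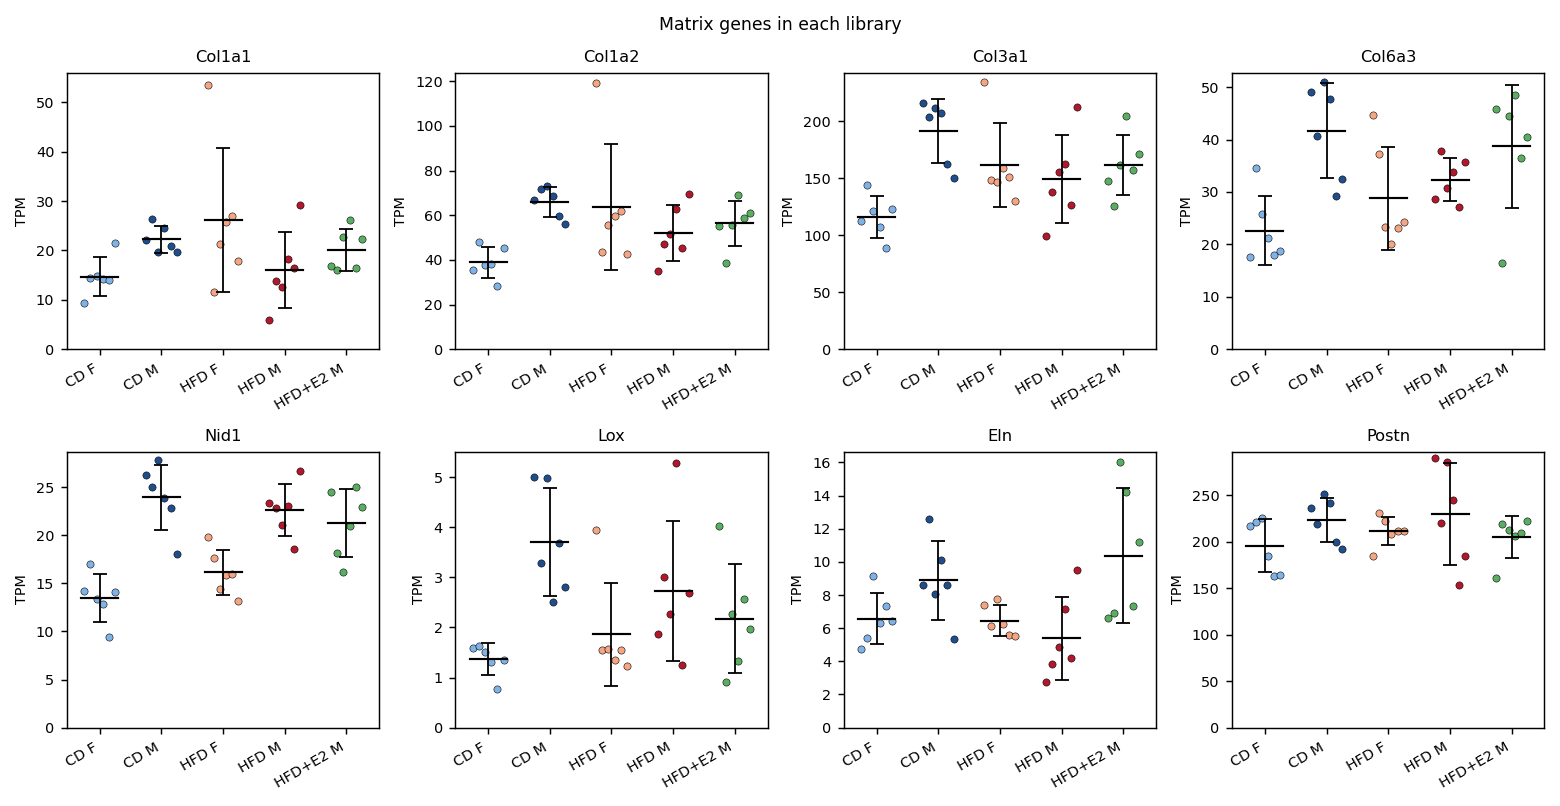
Level (TPM, linear axis from 0) of 8 matrix genes in each of the 30 libraries, with 6 points per group, a line at the group mean and bars of 1 SD. CD females lie below CD males without overlap for Col1a2, Col3a1, Nid1 and Lox, replicate 1 of the HFD females is the highest library of the series for Col1a1 (53.5 TPM) and Col1a2 (119 TPM), and Postn shows group medians between 200 and 232 TPM.

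Members also varied together within the groups. After each group mean was removed, the first principal component of log2 CPM, counts scaled to the size of the library, held 52.5% of the variance of the 43 members and the second 11.9%. On the first component 35 of 43 members had loadings of the same sign, with the largest for Col1a1 and Col5a3, and the 8 of the other sign were Lum, Ogn, Fbln5, Mfap5, Postn, Col8a1, Col4a6 and Col12a1. The spread within groups was smallest for the laminin gene Lama4 (SD 0.147 on the log2 CPM scale) and largest for Col1a1 (SD 0.575). These values describe 30 libraries that differ in their content of other cell types, and no test was attached to them. Col5a3 and Serpinh1, a chaperone of procollagen, differed 17.1-fold and 10.2-fold in TPM between the highest and the lowest library.

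**Figure D2:**
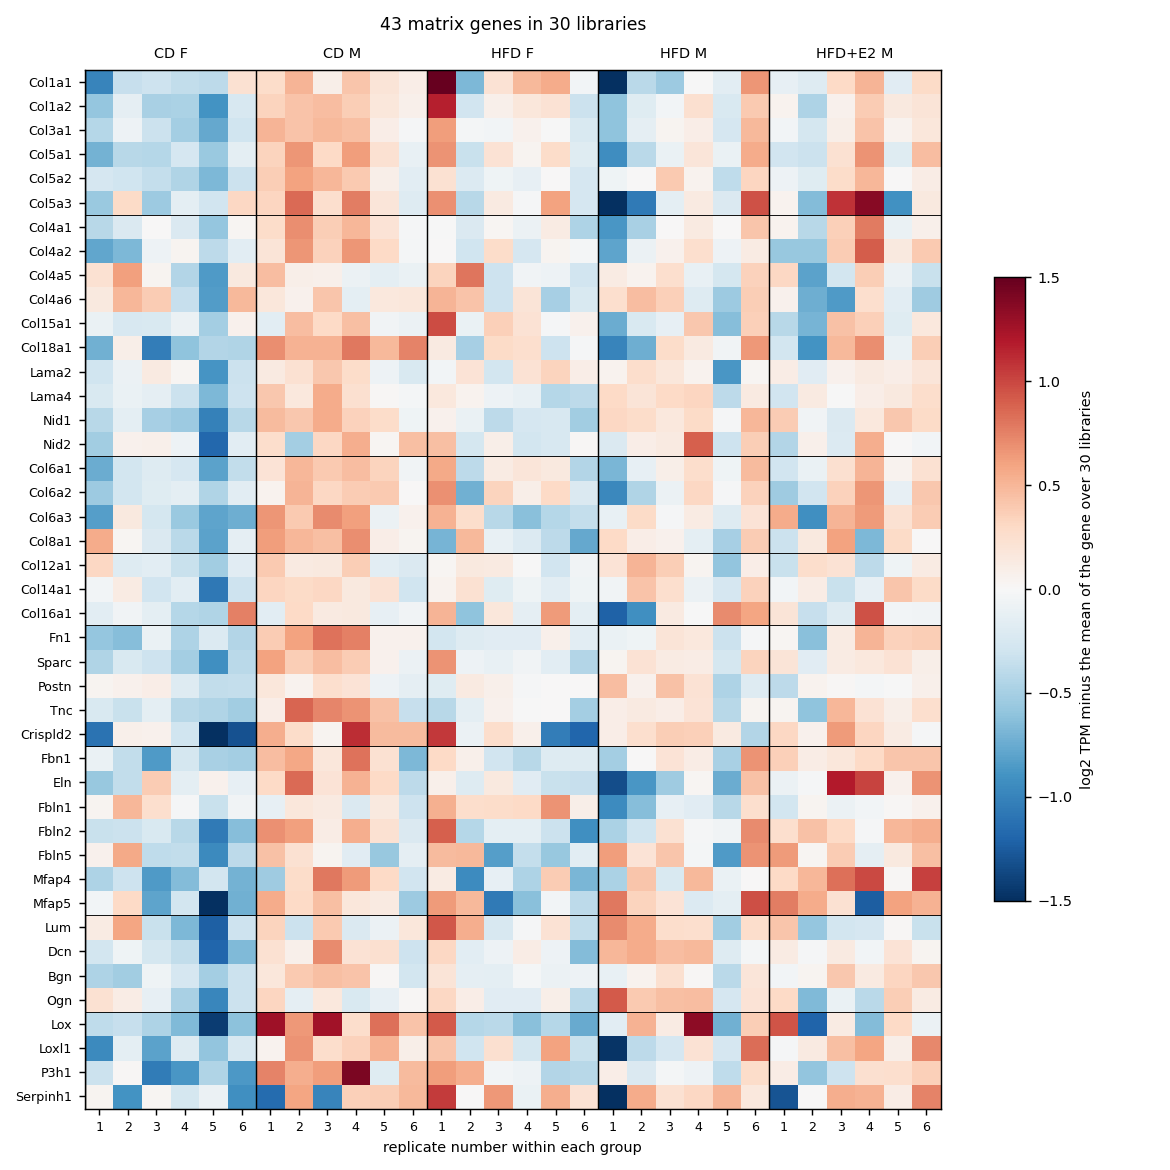
Level of 43 matrix genes (rows, grouped by class) in 30 libraries (columns, grouped by mouse group and numbered by replicate), as log2 TPM minus the mean of the gene over all libraries, with colors ending at 1.5 in both directions. Most rows are blue (low) in CD females and red (high) in CD males, and replicate 1 of the HFD males is low for Col1a1 and Col5a3.

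The sexes were compared first on the control diet, the comparison of basal expression. In CD females, 17 of 43 members fell relative to CD males and 0 rose, with adjusted p-values under 0.05 from edgeR's quasi-likelihood test on the counts. Among all 14922 genes tested, 2.14% fell and 0.777% rose at this threshold. With DESeq2, the tool of the study, the same 17 fell, and so did Col1a1, Dcn, Col6a2, Fbn1, Bgn, Col4a1 and Loxl1. That tool called 524 genes lower and 250 higher, of 18013 given an adjusted p. Calls below are those of edgeR unless DESeq2 is named. The median log2 fold change of the members was -0.50, against 0.011 over all genes, and 40 of 43 values were negative. At the threshold of the study, an unadjusted p under 0.05 and a change of more than 0.4 on the log2 scale, 27 members were lower and 0 higher, against 6.21% lower and 2.94% higher over all genes. For 12 members the 6 females lay below the 6 males without overlap in log2 CPM, which held for 1.49% of 15091 genes, with 0.689% in the opposite order. In bulk tissue, fewer cells of a type and less RNA per cell cannot be told apart.

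Of the 6 fibrillar collagen genes, 4 fell in CD females, namely Col3a1, Col1a2, Col5a2 and Col5a1. Col3a1 fell by 0.63 on the log2 scale (standard error, SE, 0.098, adjusted p = 0.00282 from edgeR), with 116 ± 18.4 TPM in females and 192 ± 28 TPM in males (SD, n = 6). Col1a2 fell by 0.61 (SE 0.102, adjusted p = 0.00423), with 38.9 ± 7.01 TPM in females and 65.9 ± 6.79 TPM in males. The chains of type V collagen, which nucleates fibrils, had 14.9 TPM (11.8 to 15.7) in females and 24.5 TPM (16.8 to 28.6) in males for Col5a2, and 6.80 TPM (5.55 to 8.26) and 11.3 TPM (8.43 to 14.4) for Col5a1. These are separate ranges in both genes on the TPM scale. They fell by 0.54 (Col5a2, adjusted p = 0.00658) and 0.63 (Col5a1, adjusted p = 0.0157). Col1a1, with the widest spread of the members, had a log2 fold change of -0.55 with a standard error of 0.168 and an adjusted p of 0.0996 from edgeR, and Col5a3 had -0.22.

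In the type VI and VIII networks, 2 of 4 genes fell. Col6a3, the longest chain of type VI collagen, had a median of 19.9 TPM (17.6 to 34.5) in CD females and 44.2 TPM (29.3 to 50.9) in CD males. One female overlapped the males on the TPM scale, and none did in log2 CPM. It fell by 0.72 (SE 0.101, adjusted p = 0.00116 from edgeR), and Col6a1 by 0.63 (SE 0.122, adjusted p = 0.00995). Col6a2 and Col8a1 came to -0.45 and -0.43 on the log2 scale (adjusted p = 0.0613 and 0.151 from edgeR). None of the 3 fibril-associated collagens Col12a1, Col14a1 and Col16a1, which sit on the surface of fibrils, passed, with log2 fold changes from -0.24 to -0.04 and 0 of 3 with an unadjusted p under 0.05, against 14.8% of all genes.

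In the basement membrane 3 of 10 genes fell, with no member of the type IV collagens among them. Nid1, which encodes the nidogen that bridges laminin and type IV collagen, had 13.8 TPM (9.38 to 17) in CD females and 24.4 TPM (18.1 to 27.8) in CD males, without overlap. It fell by 0.72 (SE 0.1, adjusted p = 0.00106 from edgeR). Col18a1, whose C-terminal fragment is endostatin, had 2.37 TPM (1.66 to 3.64) and 5.22 TPM (4.77 to 5.89) and fell by 0.77 (SE 0.127, adjusted p = 0.00423). The laminin α4 chain gene Lama4, of vessel and muscle basement membranes, had 15.7 TPM (11.8 to 17.6) and 21.6 TPM (18.4 to 27.7) and fell by 0.50 (SE 0.089, adjusted p = 0.00657). Females lay below males in every library for all 3. Col4a1 and Col4a2 came to -0.46 and -0.63, on the log2 scale (adjusted p = 0.0612 and 0.185 from edgeR). Col4a1 did pass with DESeq2 (adjusted p = 0.0248). The X-linked chains Col4a5 and Col4a6 were close to 0, at 0.012 and 0.046, with medians of 6.03 and 5.64 TPM for Col4a5 in females and males.

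Of 7 elastic fiber and microfibril genes, Fbln2 and Mfap4 fell. The fibulin gene Fbln2 had 7.66 TPM (4.76 to 8.43) in CD females and 13.1 TPM (8.56 to 15.9) in CD males, and fell by 0.80 (SE 0.137, adjusted p = 0.00494 from edgeR). Mfap4, a microfibril-associated glycoprotein, had 4.29 TPM (3.48 to 5.20) and 7.67 TPM (4.34 to 10.9), with overlap, and fell by 0.998 (SE 0.246, adjusted p = 0.0402). Fbn1 and Eln came to -0.68 and -0.31, on the log2 scale (adjusted p = 0.058 and 0.521 from edgeR), and Fbln1, at 0.23, was the highest value of the 43 members. None of the 4 small leucine-rich proteoglycans passed. Dcn, Bgn, Lum and Ogn had values between -0.55 (Dcn, adjusted p = 0.0673 from edgeR) and -0.12 (Ogn). Dcn, Bgn and Fbn1 did pass with DESeq2 (adjusted p = 0.0285, 0.0466 and 0.0119).

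Of 5 adhesive and matricellular genes, 4 fell. Sparc fell by 0.67 (SE 0.099, adjusted p = 0.0019 from edgeR). Crispld2, which encodes a secreted glycoprotein, had 3.85 TPM (1.94 to 6.35) in CD females and 8.37 TPM (6.17 to 13.0) in CD males and fell by 0.84 (SE 0.136, adjusted p = 0.00381). Fn1 fell by 0.72 (SE 0.179, adjusted p = 0.0413) and Tnc, the matricellular protein tenascin C, by 0.71 (SE 0.176, adjusted p = 0.041). The levels of Tnc were 16.9 TPM (15.3 to 19.9) in females and 32.4 TPM (17.3 to 40.3) in males. Postn, the second most abundant member, had a log2 fold change of -0.11 with medians of 200 and 228 TPM. In the processing class Lox and P3h1 fell. Lox had the largest decrease of the 43 members, by 1.18 (SE 0.147, adjusted p = 0.000439 from edgeR), and P3h1 fell by 0.66 (SE 0.165, adjusted p = 0.0398), with 1.01 TPM (0.768 to 1.60) in females and 2.38 TPM (1.40 to 4.23) in males. Loxl1, which encodes an enzyme related to Lox, and the chaperone gene Serpinh1 had log2 fold changes of -0.68 and -0.25, with adjusted p-values of 0.0612 and 0.201 from edgeR.

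**Figure D3:**
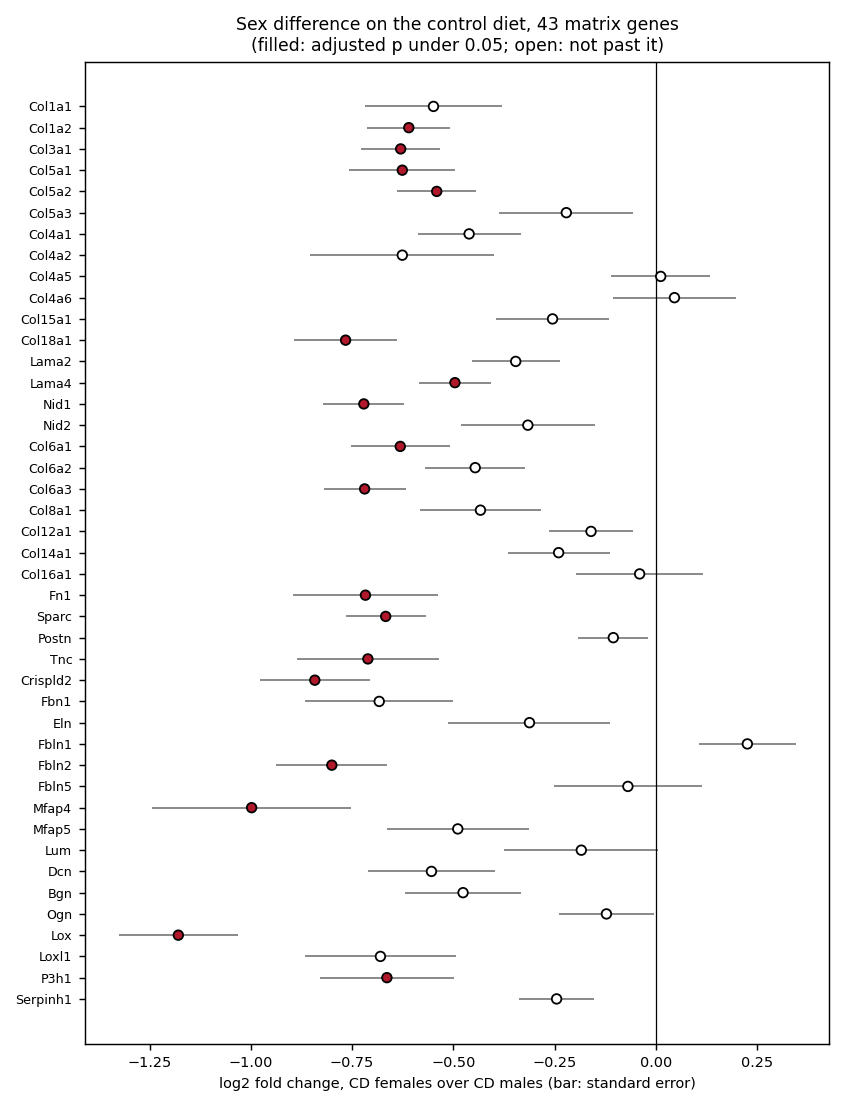
Log2 fold change of CD females over CD males (x axis, from edgeR on the counts of 6 and 6 libraries) for 43 matrix genes (y axis, by class), with bars of 1 standard error. Filled points mark the 17 genes with an adjusted p under 0.05, all of them left of 0, and the lowest is Lox at -1.18.

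Smooth muscle genes moved with these members. All 10 genes of a smooth muscle list had negative values between CD females and CD males (median -0.59), 6 of them with adjusted p-values under 0.05, and Actg2, the enteric smooth muscle actin, fell by 0.95. Their summed level was 2640 to 4090 TPM in CD females and 4150 to 6890 TPM in CD males, without overlap. None of the defining markers was at 0. The smooth muscle score of each library, the mean log2 CPM of the list, was then used as a covariate. In that fit 2 of 43 members kept an adjusted p under 0.05, Lox (-1.21, adjusted p = 0.0122 from edgeR) and Nid1 (-0.58, adjusted p = 0.0499). The median of the members was -0.21, and Col4a2 changed sign, to 0.17. Over all 14922 genes, 107 were lower and 124 higher with the score, against 319 and 116 without it. The score itself had means of 8.864 in CD females and 9.468 in CD males, so score and sex are not separate in this fit. Of 9 fibroblast markers 6 had negative values and 3 positive (median -0.294), and 6 had an unadjusted p under 0.05, against 14.8% of all genes. At the adjusted threshold 1 fell, the intermediate filament gene Vim. The summed level was 313 to 675 TPM in females and 511 to 740 TPM in males. All 8 endothelial markers had negative values (median -0.405), of which Cdh5 fell and 4 were past the study's threshold. The 6 B cell markers had positive values (median 1.38) with 0 past the adjusted threshold and 3 past the study's. Of 5 skeletal muscle markers 3 were tested, all with negative values (median -1.04), 2 of them past the study's threshold. Macrophage markers (7 genes) had a median of -0.33, with 0 past the adjusted threshold and 3 lower at the study's. The part of the other cell types in the result was not tested beyond this covariate.

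Other matrix genes outside the 43 gave counts in the same direction. Of 22 other genes of collagen processing 6 fell and 0 rose, among them the lysyl oxidase genes Loxl2 (-0.82) and Loxl4 (-0.90), the prolyl isomerase gene Fkbp10 (-0.66) and P3h2 (-0.58). In a list of 19 other microfibril and proteoglycan genes 5 fell, led by Tnxb (-0.65), Podn (-0.91), Thbs2 (-0.80) and Aspn (-0.60). Of 15 other basement membrane genes 2 fell, Pxdn (-0.50), a peroxidase that crosslinks type IV collagen, and the laminin γ1 gene Lamc1 (-0.67). Of 10 other collagen genes 1 fell, Col6a5 (-1.56). In the TGF-β pathway, which drives matrix gene expression in fibroblasts, 1 of 19 genes fell, the co-receptor gene Tgfbr3 (-0.58), and the median was -0.14.

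The calls of 13 of the 17 members held when any 1 of the 12 libraries was left out. The other 4, Mfap4, Fn1, Tnc and P3h1, lost the adjusted threshold in at least 7 of the 12 fits. The number of members that fell was lowest, 13, without CD male replicate 2 and highest, 23, without CD male replicate 6.

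On the high-fat diet the sexes were compared in the same way, with no library in common with the comparison on the control diet. Between HFD females and HFD males, 0 of 43 members passed the adjusted threshold with edgeR, against 0.0264% higher and 0.0725% lower over 15179 genes. An unadjusted p under 0.05 was found for 5 of 43 members, against 5.09% of all genes. At the study's threshold 2 were higher and 1 lower in females, against 2.01% and 1.08% over all genes, and the median log2 fold change was 0.015. Nid1 had 15.9 TPM (13.2 to 19.8) in HFD females and 23 TPM (18.6 to 26.7) in HFD males. It did not overlap in log2 CPM, and neither did Fbln1, against 0.235% of genes lower and 0.137% higher without overlap. Nid1 had also been separate on the control diet. On the high-fat diet it had a value of -0.44 (SE 0.086, adjusted p = 0.0972 from edgeR, exact permutation test, p = 0.00216, the smallest possible). Its adjusted p was 0.000145 with DESeq2, which called 0.136% of genes lower, and 0.0301 with all 30 libraries in one edgeR fit. Fbln1, a fibulin of basement membranes and elastic fibers, had 20.9 TPM (18.2 to 27.4) in females and 14.1 TPM (8.90 to 20.5) in males, a difference of 0.66 on the log2 scale (SE 0.165, adjusted p = 0.47 from edgeR). Col15a1, a collagen of basement membrane zones, had 7.44 TPM (6.32 to 13.3) and 5.98 TPM (4.03 to 8.97), a log2 fold change of 0.50 (adjusted p = 0.872 from edgeR).

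All 6 fibrillar collagen genes had positive values between HFD females and HFD males, from 0.02 to 0.77 (Col1a1, standard error 0.411), with 0 of 6 at an unadjusted p under 0.05. Lox had -0.48 with a standard error of 0.254 and an adjusted p of 0.872 from edgeR. For 22 members the value was negative on the control diet and positive on the high-fat diet, for 18 it was negative on both and for 2 positive on both. With the 2 HFD females and 4 HFD males that had under 100 TPM of squamous epithelium genes, the median of the members was -0.10, against 0.015 with all 12 libraries, and 0 were higher and 2 lower at the study's threshold. Without HFD male replicate 5, 2 were higher and 3 lower. Mitochondrial genes took a median of 32.1% of counts in HFD females and 36.5% in HFD males, and 6 of 8 endothelial markers had negative values (median -0.321). Their part in these values was not tested.

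The diets were compared within each sex. CD females and CD males are also the groups of the sex comparison on the control diet, so their levels enter both results. Between HFD females and CD females 0 of 43 members passed the adjusted threshold with edgeR, against 0.0133% higher and 0.00664% lower over 15061 genes, and 16 had an unadjusted p under 0.05, against 5.68% of all genes. With DESeq2, 1 passed, Col3a1 (adjusted p = 0.0221), against 0.992% of genes higher with that tool. At the study's threshold 8 were higher in HFD females and 0 lower, against 2.95% and 0.724% over all genes, and 40 of 43 values were positive with a median of 0.21. The 8 were Col3a1, Col1a2, Col5a1, P3h1, Crispld2, Col6a1, Col1a1 and Loxl1. Of the classes, fibrillar collagens held 4 of the 8, and none came from the basement membrane, elastic fiber or proteoglycan genes.

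Col3a1 had the lowest p-value of the members, with a difference of 0.40 on the log2 scale (SE 0.102, adjusted p = 0.412 from edgeR) and 162 ± 36.9 TPM in HFD females against 116 ± 18.4 TPM in CD females (SD, n = 6). Col1a2 had 0.60 (SE 0.185, adjusted p = 0.527) and Col1a1 the highest value of the members, 0.78 (SE 0.294, adjusted p = 0.693). Col5a1, P3h1, Crispld2, Col6a1 and Loxl1 had values between 0.41 and 0.46. The groups overlapped in log2 CPM for all 8. Sparc, at 0.38, was the only member whose groups did not overlap in log2 CPM, against 0.17% of genes higher and 0.059% lower without overlap.

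These values rested in part on a few libraries. Without HFD female replicate 1, the highest library for Col1a1, Col1a2 and Col3a1, 3 members were past the study's threshold, and without HFD female replicate 2 there were 14. The count was 4 without CD female replicate 1, 5 without CD female replicate 5 and 4 without HFD female replicate 5. With only the 2 HFD females under 100 TPM of squamous epithelium genes, 0 members passed, the median was 0.058 and Col6a1 changed sign, to -0.051. With a score of squamous epithelium genes as a covariate 0 passed and the median was 0.11. Smooth muscle genes, of which 10 of 10 had positive values with 0 of 10 at an unadjusted p under 0.05, summed to 2780 to 4800 TPM in HFD females, and with their score 2 members passed. Skeletal muscle markers (3 tested, all positive, 2 past the study's threshold) had a median of 3.06, and the list of 5 summed to 143 and 158 TPM in HFD female replicates 1 and 3, against at most 22.1 TPM in CD females. The part of these cell types in the difference was not tested beyond these covariates.

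Between HFD males and CD males the members' values had the other sign. Again 0 of 43 passed the adjusted threshold with edgeR or DESeq2, against 0.0% of 14991 genes in either direction with edgeR and 0.127% with DESeq2, and 16 had an unadjusted p under 0.05, against 6.03% of all genes. At the study's threshold 11 were lower in HFD males and 0 higher, against 1.64% and 1.25% over all genes, and 37 of 43 values were negative with a median of -0.33. The 11 were Fn1, Col6a3, Crispld2, Col8a1, Tnc, Eln, P3h1, Col18a1, Col4a2, Col5a1 and Col4a1. Fn1 had 131 ± 16.5 TPM in HFD males and 185 ± 40.9 TPM in CD males (SD, n = 6) and a difference of -0.54 on the log2 scale (SE 0.145, adjusted p = 0.574 from edgeR). Col6a3 had -0.47 (SE 0.126, adjusted p = 0.574), and Eln the lowest value of the members, -0.71 (SE 0.257, adjusted p = 0.758). The groups overlapped in log2 CPM for all 43 members, against 0.165% of genes lower and 0.191% higher without overlap.

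Crispld2 and Tnc had log2 fold changes of -0.48 and -0.50 between HFD males and CD males, Col8a1 -0.41 and P3h1 -0.41. In the basement membrane class Col4a2 (-0.59), Col18a1 (-0.55) and Col4a1 (-0.46) were past the study's threshold, and the other 7 were not. The proteoglycans stood apart in sign, with 3 of 4 positive and Ogn (osteoglycin) at 0.34 (SE 0.116, adjusted p = 0.716 from edgeR), with 127 TPM (79.2 to 179) in HFD males and 91.2 TPM (80.5 to 118) in CD males. The number past the study's threshold was 5 without CD male replicate 2, 7 without CD male replicate 3 or 4 or HFD male replicate 2 or 3, and 20 without HFD male replicate 6. It was 8 with the 4 HFD males under 100 TPM of squamous epithelium genes. Smooth muscle genes again moved in the same direction (10 of 10 negative, median -0.28, summed level 3980 to 6330 TPM in HFD males), and with their score 1 member passed and the median was -0.17. Mitochondrial genes took a median of 36.5% of counts in HFD males and 33.7% in CD males. They took 27.8% in HFD male replicate 6 and 36.0% to 38.0% in the other 5 HFD males. The part of the mitochondrial share in the result was not tested.

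**Figure D4:**
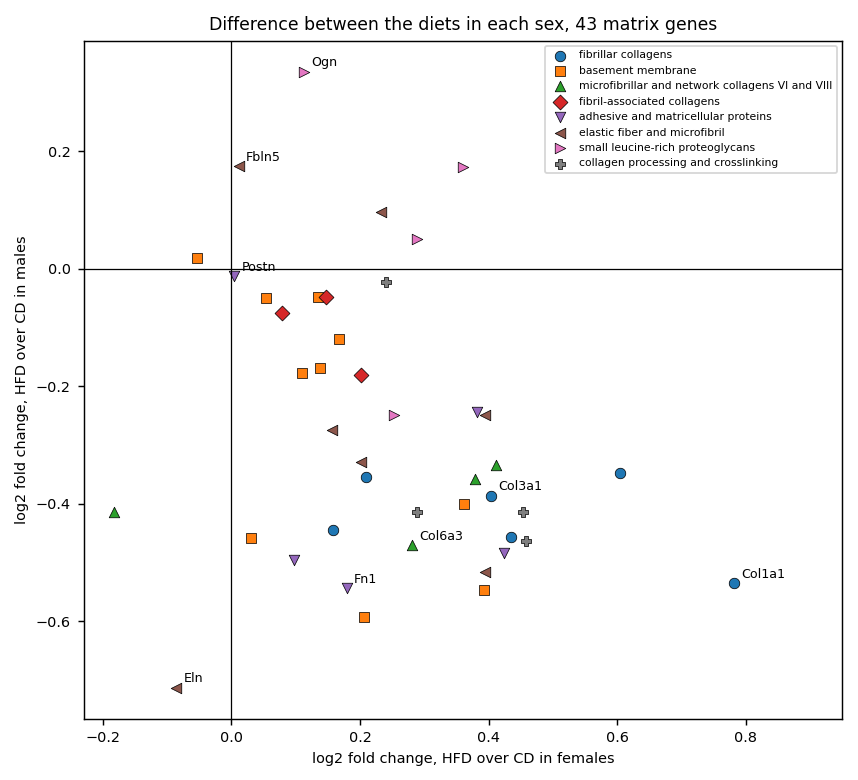
Log2 fold change of the high-fat over the control diet in females (x axis) and in males (y axis) for 43 matrix genes, from edgeR on 6 and 6 libraries each, with a symbol for each class. In the lower right are 35 genes with positive values in females and negative values in males, Col1a1 farthest to the right at 0.78 and -0.54.

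The difference between the sexes in the diet effect was tested as an interaction over the 24 libraries of the vehicle-treated groups. It equals the sex difference on the high-fat diet minus that on the control diet, whose member medians were 0.015 and -0.50. The interaction is therefore not a result separate from the sex difference on the control diet. None of the 43 members passed the adjusted threshold with edgeR or DESeq2 (0.0% of 15800 genes with edgeR and 0.0101% with DESeq2), and 23 had an unadjusted p under 0.05, against 6.75% of all genes. Past the study's threshold were 21 members, all with a more positive diet effect in females, against 3.71% of all genes, and the median was 0.56. For 35 members the diet value was positive in females and negative in males, for 5 positive in both, for 2 negative in both and for 1 the reverse. Col6a3 had the lowest p-value, with an interaction of 0.74 on the log2 scale (SE 0.165, adjusted p = 0.319 from edgeR), followed by Crispld2 at 0.90 (SE 0.208, adjusted p = 0.319), P3h1 at 0.86 (adjusted p = 0.319), Col3a1 at 0.78 (adjusted p = 0.358) and Sparc at 0.62 (adjusted p = 0.358). Col1a1 had the highest value, 1.31 (SE 0.456, adjusted p = 0.626).

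By class, 5 of 6 fibrillar collagens, 3 of 4 network collagens, 4 of 5 adhesive genes and 3 of 4 processing genes were past the study's threshold in the interaction, against 3 of 10 basement membrane genes, 2 of 7 elastic fiber genes, 1 of 4 proteoglycans and 0 of 3 fibril-associated collagens. With the smooth muscle score 10 members remained past it in number and the median was 0.29. With libraries under 100 TPM of squamous epithelium genes only, that is 2 HFD females and 4 HFD males, 7 were past it and the median was 0.35. All of these had positive values.

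E2 was compared with vehicle in males on the high-fat diet. Between HFD+E2 males and HFD males 0 of 43 members passed the adjusted threshold with edgeR, against 0.00666% higher and 0.0% lower over 15010 genes, and 8 had an unadjusted p under 0.05, against 10.2% of all genes. With DESeq2, Eln (adjusted p = 0.0453) and Fn1 (adjusted p = 0.0485) passed, against 0.108% of genes higher with that tool. At the study's threshold 6 members were higher with E2 and 0 lower, against 2.63% and 3.24% over all genes, and 35 of 43 values were positive with a median of 0.27. The 6 were Fn1, Col6a3, Eln, Mfap4, Bgn and Fbln1, of which 3 belong to the elastic fiber and microfibril class. All 7 genes of that class had positive values, with a median of 0.40.

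Eln had 4.51 TPM (2.78 to 9.50) in HFD males and 9.25 TPM (6.61 to 16.0) in HFD+E2 males, a difference of 1.095 on the log2 scale (SE 0.300, adjusted p = 0.454 from edgeR, two-sided exact permutation test, p = 0.013). It had the highest value of the 43 members, and none of the 6 HFD+E2 males lay below the median of the HFD males. Fn1 had 0.50 (SE 0.129, adjusted p = 0.429 from edgeR), Col6a3 0.54 (SE 0.151, adjusted p = 0.454) and Mfap4 0.72 (SE 0.225, adjusted p = 0.454), with 10 TPM (6.39 to 12.8) in HFD+E2 males and 6.10 TPM (4.54 to 8.84) in HFD males. Bgn (biglycan), a proteoglycan of collagen fibrils, had 0.40 and Fbln1 0.43. The groups overlapped in log2 CPM for all 43 members, against 0.145% of genes higher and 0.264% lower without overlap, and the HFD+E2 male replicate 2 was the lowest of its group for Col6a3 (16.4 TPM).

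The comparison with E2 and that of the diets in males share the HFD males, so that a low value in these libraries enters both with opposite signs. Side by side, HFD males against CD males and HFD+E2 males against HFD males had log2 fold changes of -0.54 and 0.50 for Fn1, -0.47 and 0.54 for Col6a3, and -0.71 and 1.095 for Eln. For the fibrillar collagens the pairs were -0.54 and 0.50 for Col1a1 and -0.39 and 0.27 for Col3a1, and for Lox they were -0.41 and -0.18. The number of members past the study's threshold with E2 was 4 without HFD male replicate 1 and 13 without HFD male replicate 6. Squamous epithelium genes summed to at most 2.78 TPM in HFD+E2 males, and with the 4 HFD males under 100 TPM of these genes 5 members passed and the median was 0.28. Smooth muscle genes had a median of 0.17 with 8 of 10 positive, and with their score 3 members passed. Over all 15010 genes, 258 were higher at the study's threshold with the score and 395 without it. Of 9 fibroblast markers 8 had positive values, with a median of 0.37 and 0 past the adjusted threshold, and their summed level was 503 to 781 TPM in HFD males and 581 to 730 TPM in HFD+E2 males. Of 7 macrophage markers 6 had positive values (median 0.325), 2 past the study's threshold, and the 3 skeletal muscle markers tested were negative (median -2.67), 2 past it. Mitochondrial genes took a median of 36.5% of counts in HFD males and 32.3% in HFD+E2 males. Their part in the result was not tested.

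Summed by class, the fibrillar collagens had medians of 189 TPM in CD females, 343 TPM in CD males, 264 TPM in HFD females, 241 TPM in HFD males and 269 TPM in HFD+E2 males. The range of CD females (151 to 232 TPM) did not reach that of CD males (253 to 348 TPM), and the 3 HFD groups overlapped with each other. Basement membrane genes had medians of 101, 147, 111, 120 and 124 TPM in the same order, and again CD females (71.6 to 106 TPM) lay apart from CD males (114 to 155 TPM). The elastic fiber class had 57.1, 81.5, 65.9, 64.5 and 81.7 TPM, with overlap between CD females (47.3 to 67.5 TPM) and CD males (50.7 to 93.2 TPM). Its range was 78.2 to 93.3 TPM in HFD+E2 males, 49.8 to 98.0 TPM in HFD males and 56.0 to 93.0 TPM in HFD females. The proteoglycan class had its highest median, 646 TPM, in HFD males. These sums follow the most abundant genes of each class, such as Dcn among the proteoglycans.

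**Figure D5:**
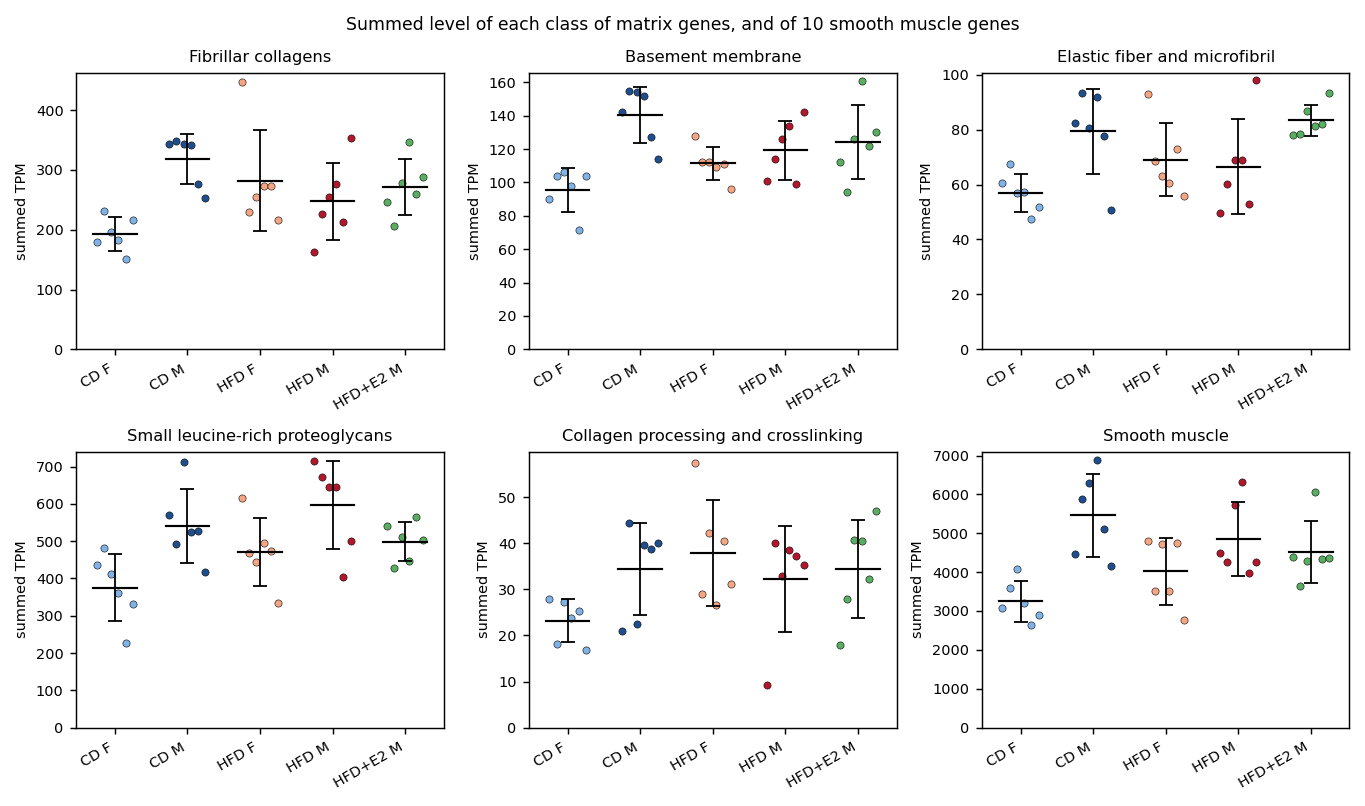
Summed level (TPM, linear axis from 0) of 5 classes of matrix genes and of 10 smooth muscle genes in each of 30 libraries, with 6 points per group, a line at the group mean and bars of 1 SD. CD females lie below CD males without overlap for the fibrillar collagens, the basement membrane genes and the smooth muscle genes, and HFD+E2 males lie between 78.2 and 93.3 TPM for the elastic fiber class.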

How the data were processed

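Colon RNA-seq libraries of 30 mice were grouped by their titles, 6 per group. The authors mapped the reads to GRCm38 with STAR and deposited raw gene counts from featureCounts and TPM values from StringTie, and the strand setting of the counting is not given in the sources used here. Members were matched by gene name and ID, and coordinates come from GENCODE (GRCm38). Counts were tested with edgeR 4.0.16 (filterByExpr, TMM, robust quasi-likelihood fit) in R 4.3.3, over the 12 libraries of a comparison or 24 for the interaction, and the Benjamini-Hochberg adjustment ran over every gene tested. All 43 members passed the filter in every comparison. Standard errors follow from the F statistic. The study's threshold (p under 0.05, log2 fold change over 0.4) was read as unadjusted. Overlap and exact permutation tests used log2 CPM with a prior count of 2, and the smallest p for 6 against 6 is 0.00216. Scores are the mean log2 CPM of a list. The fit was tested on simulated data.

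Levels are given in full for 12 members, Col1a1, Col1a2, Col3a1, Col4a1, Col4a2, Col6a1, Fn1, Fbn1, Eln, Sparc, Dcn and Lox. For each comparison the members with an adjusted p under 0.05 are named, at most 15 by lowest p, or, where fewer than 5 passed, up to 10 past the study's threshold by lowest p. Tnc, Fn1 and Col4a1 beyond these limits, and other members given for their class, were named after their values were seen. From lists outside the members up to 4 genes are named. The members and lists were chosen with earlier results of these data known.

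Alternatives were DESeq2 1.42.0, its size factors, no filter, a minimum of 10 counts per library, a single fit of all 30 libraries, a block for the replicate number, smooth muscle or squamous scores as covariates, limma 3.58.1 on log2 TPM, no fold change minimum and each library left out. Leaving out the libraries with over 100 TPM of squamous genes was added after seeing the data. The reads carry no molecular identifiers, so counts need not be independent molecules, and depth ranged from 8667177 to 17243712 counts.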

Additional observations from a re-analysis of the deposited data

Results flagged for a closer look

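Single libraries stood apart from the other 5 of their group, by Dixon's criterion on log2 TPM, in 13 of 140 pairs of a named member and a group (28 members in 5 groups). Chance alone marks about 1 in 20 groups, and members measured in the same library are not independent. HFD female replicate 1 was highest for Col1a2 (119 TPM, others 42.6 to 61.7), Col3a1 (235 TPM, others 130 to 159), Sparc (122 TPM, others 56.7 to 74.0), Bgn (43.7 TPM, others 34.4 to 37.5) and Lox (3.94 TPM, others 1.23 to 1.57). It is also the library with the highest summed level of squamous epithelium genes, 1380 TPM. HFD female replicate 5 was highest for Fn1 (140 TPM, others 109 to 119).

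HFD male replicate 1 was lowest for Col4a2 (9.52 TPM, others 15.5 to 19.7). HFD male replicate 5 was lowest for Lama4 (14.4 TPM, others 20.6 to 23.6) and Tnc (16.4 TPM, others 22.6 to 25.3), and HFD male replicate 6 for Crispld2 (4.45 TPM, others 6.45 to 7.75). HFD+E2 male replicate 2 was lowest for Col6a3 (16.4 TPM, others 36.4 to 48.5) and Sparc (68.3 TPM, others 81.5 to 89.3). CD female replicate 5 was lowest for Lox (0.776 TPM, others 1.32 to 1.64).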

How the results depend on the processing

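Between CD females and CD males, 17 members fell at the adjusted threshold, 2 with the smooth muscle score, 11 with limma on log2(TPM + 1) and 13 to 23 with 1 library left out. Over all genes, 319 of 14922 fell, 107 with the smooth muscle score, and 120 of 21480 with that limma setting. With DESeq2, Col1a1, Dcn, Col6a2, Fbn1, Bgn, Col4a1 and Loxl1 fell in addition to these 17. The number past the study's threshold, 27, was 11 with the smooth muscle score (1 higher, 10 lower) and 25 to 29 with 1 library left out, and Col4a2 reversed to 0.166 with that score. For HFD females against HFD males, 1 member passed the adjusted threshold with DESeq2 and 1 with all 30 libraries in one fit. At the study's threshold, 3 members became 5 without the fold change minimum, 5 with all 30 libraries, 5 with the smooth muscle score and 3 to 5 with 1 library left out. Over all genes, 305 higher and 164 lower became 480 and 194 with all 30 libraries and 610 and 241 with the smooth muscle score. For HFD females against CD females 1 passed the adjusted threshold with DESeq2, and the 8 past the study's threshold became 16 without the fold change minimum, 2 with the smooth muscle score, 0 with the squamous score, 0 with only libraries under 100 TPM of squamous genes (Col6a1 reversed to -0.051) and 3 to 14 with 1 library left out. Over all genes, 444 higher became 322 with the smooth muscle score, 174 with the squamous score and 189 with that subset of libraries. For HFD males against CD males, 11 became 1 with the smooth muscle score and 5 to 20 with 1 library left out. Over all genes, 246 lower became 182 with the smooth muscle score. For HFD+E2 males, 2 passed the adjusted threshold with DESeq2, and 6 past the study's threshold became 3 with the smooth muscle score, 2 with limma on each of the 3 log2 TPM settings and 4 to 13 with 1 library left out. Over all genes, 395 higher of 15010 became 258 with the smooth muscle score. With limma they were 189 and 247 of 21611 and 150 of 15320, and 1165 to 1606 genes were lower, against 486 with edgeR. The interaction count of 21 became 10 with the smooth muscle score, 7 with only libraries under 100 TPM of squamous genes and 18 to 26 with 1 library left out. Over all genes, 586 positive became 342 with the smooth muscle score and 203 with that subset of libraries. The causes were not tested, except that the subset has fewer libraries.

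Samples were taken as paired only if the deviations of every same-numbered pair had a correlation over 0.1. This held for 5 of 6 pairs between CD females and CD males and in HFD against CD males, and for 2 to 4 of 6 elsewhere, so no comparison met it. A sample was closest to its own number in 4 of 6 cases in the first and in 0 to 4 over the 5 comparisons. With the replicate block, 25 members fell between CD females and CD males, against 17 without it. Over all 14922 genes, 615 fell with the block and 319 without it. Eln passed the adjusted threshold for E2 with the block (1 member, adjusted p = 0.0327 from edgeR). At the study's threshold the block gave 3 members for HFD against CD females, 16 in males and 12 for E2, and it changed no other count by over 1.5 times. Over all genes the block gave 396 higher and 110 lower in females, against 444 and 109 without it. In males it gave 197 higher and 361 lower, against 188 and 246, and for E2 622 and 536, against 395 and 486.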
